A study of Mus musculus with 8 samples.

Results

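The data described here were the 4 polysomal RNA-seq libraries, of 8 libraries in all, from mouse embryos at E11.5. They were 2 wild-type (WT) libraries and 2 libraries of the Lin28a-/-;b-/- genotype, which lacks both Lin28 genes and is called dKO in the sample names. The members were the columns of the polysomal count table that carry these names. The tissue is labelled brain, and the growth protocol speaks of neural tube. The other 4 libraries, 2 per genotype, hold total RNA of the same stage and are used here for comparison. The collection of the polysomes, the design of the knockout alleles or the number of embryos behind a library is not given in the sources used here. Nothing says that the 2 replicates of a group came from separate embryos, so the p-values below reflect nothing beyond the spread of these libraries, and that spread may be technical. In bulk samples, fewer cells of a type and less RNA per cell cannot be told apart.

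Polysomes are messenger RNAs loaded with several ribosomes, and RNA sequenced from them is commonly read as RNA under translation. Lin28a and Lin28b are RNA-binding proteins of early embryos that keep let-7 microRNAs from maturing and that bind many messenger RNAs as well. Mature let-7 pairs through its seed with sites in the 3′ untranslated region (3′UTR) of its targets, among them Hmga2 and the Igf2bp genes, and lowers their output. In the early neural tube Lin28 is known as a factor of dividing progenitors, and it declines as neurons form.

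Polysomal RNA of the dKO libraries held less Lin28a, Lin28b, Hmga2, Onecut2, Igdcc3 and Igf2bp1 RNA than the WT libraries. Among genes listed for mitosis 42 of 43 were lower, for DNA replication 28 of 32, for the spliceosome 20 of 25 and for the proteasome 15 of 18, where 52.5% of all tested genes were lower. After an adjustment for the GC content of the transcripts these counts were 13, 10, 9 and 8, where 20.2% of all were lower. Hox genes were higher in 15 of 18 cases, and in 14 after the adjustment. Some of these were so rare in WT that they could be tested only because of their dKO counts, which raises this share. Genes listed for collagens (15 of 15), immediate early factors (12 of 12), Notch signalling (15 of 19) and forebrain patterning (7 of 7) were mostly higher too, where 47.2% of all were, but after the adjustment 5, 7, 7 and 2 of them were, where 26.6% of all were. The polysomal table holds only 15 of 33 collagen, 12 of 28 immediate early, 19 of 29 Notch and 7 of 27 forebrain genes. For mitosis it holds 43 of 68 genes, for replication 32 of 59, for the spliceosome 25 of 44 and for the proteasome 18 of 35. These counts do not speak for the unlisted members. In the same libraries 45S ribosomal RNA precursor (Rn45s) was higher by 6.13 ± 0.42 (SE) on the log2 scale, and genes rich in G and C were higher while genes rich in A and T were lower.

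The deposited polysomal table lists 5804 genes, against 24420 rows in the total RNA table, and the rule that chose them is not given in the sources used here. Counts summed over the listed genes were 14874143 and 15414712 in the WT libraries and 3740980 and 5164982 in the dKO libraries. The sums leave out every unlisted gene, so they do not give library depth, but the smaller dKO sums give a lower precision for rare RNAs there. The WT replicates differed less (chi-square per degree of freedom 2.89) than the dKO replicates (24.8). This figure gives abundant genes a large weight, and Rn45s held 9.52% and 4.58% of the listed counts of the dKO libraries. The dKO value thus depends in part on that 1 gene and is not the spread of a typical gene. Of 5777 genes that passed the filter on low counts, 5760 (99.7%) had an adjusted p under 0.05 by edgeR's quasi-likelihood test with Benjamini-Hochberg adjustment. 2728 of them (47.2%) were higher in the dKO libraries and 3032 (52.5%) were lower. In all 5777 tested genes (100%) both dKO libraries lay on the same side of both WT libraries. A listed gene therefore could hardly fail the test, and the counts of called genes in the groups below are read against these shares. The median absolute log2 fold change was 0.89, and the median of all tested genes was -0.35.

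Genes with little difference between the genotypes were missing from the list. The log2 ratio of dKO to WT counts, before any scaling, left an empty band from -2.04 to -1.71 once genes averaging under 100 counts were set aside, with 2927 genes below and 2514 above it. Because the genes with no difference are not there to anchor it, the zero of every fold change given here depends on the scaling. Scaling by the median ratio (RLE) in place of trimmed means moved the median of all tested genes to -0.11, and the share of called genes that were higher from 47.4% to 53.2%.

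**Figure D1:**
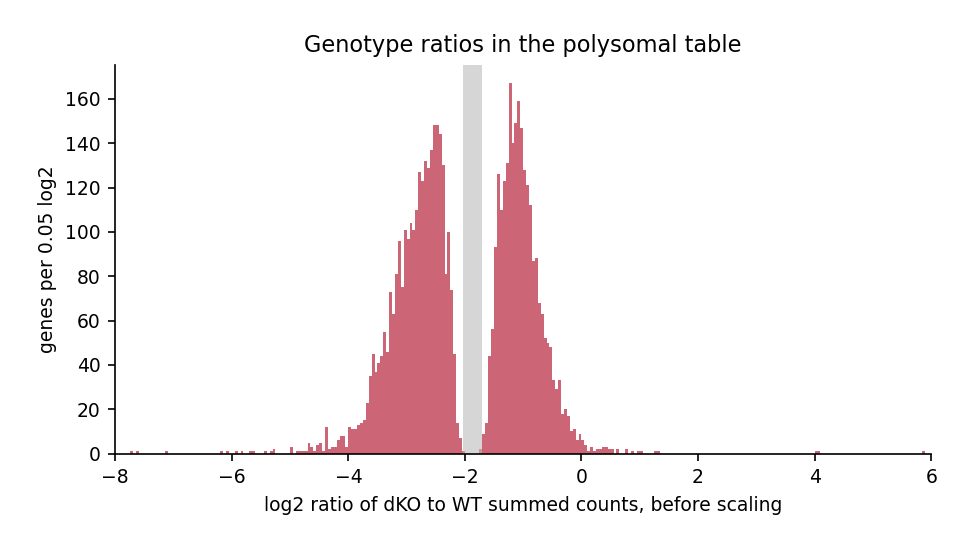
Histogram of the log2 ratio of dKO to WT counts, summed over the replicates and before scaling, for the genes of the polysomal table (x axis, log2; y axis, genes per bin of 0.05 log2). The grey band from -2.04 to -1.71 holds no gene that averages 100 counts or more, and the listed genes form a separate hump on each side of it.

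The genotype difference followed the base composition of the transcripts. Across 5741 genes with an annotated transcript, the Spearman correlation of the log2 fold change with GC content was 0.773, and it was 0.772 and 0.762 for the dKO replicates taken one at a time (genes are not independent replicates, and they share the same libraries). Among 10 equal groups of genes ordered by GC, the poorest in GC (31.001 to 40.5%) had 569 of 575 genes lower in dKO and a median log2 fold change of -1.27. In the richest group (59.6 to 78.9%), 558 of 574 genes were higher and the median was 1.15. In total RNA the medians of the same groups were 0.070 and 0.038. Transcript length showed little of this (Spearman correlation -0.0799). A fit with a smooth GC term taken out, called GC-adjusted below, left 2703 genes called (46.8%), 1538 higher (26.6%) and 1165 lower (20.2%). Of these, 1009 were higher and 926 lower in both fits, while 527 went from lower to higher and 235 from higher to lower. What set the trend was not tested, and values from both fits are given for most genes named below.

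**Figure D2:**
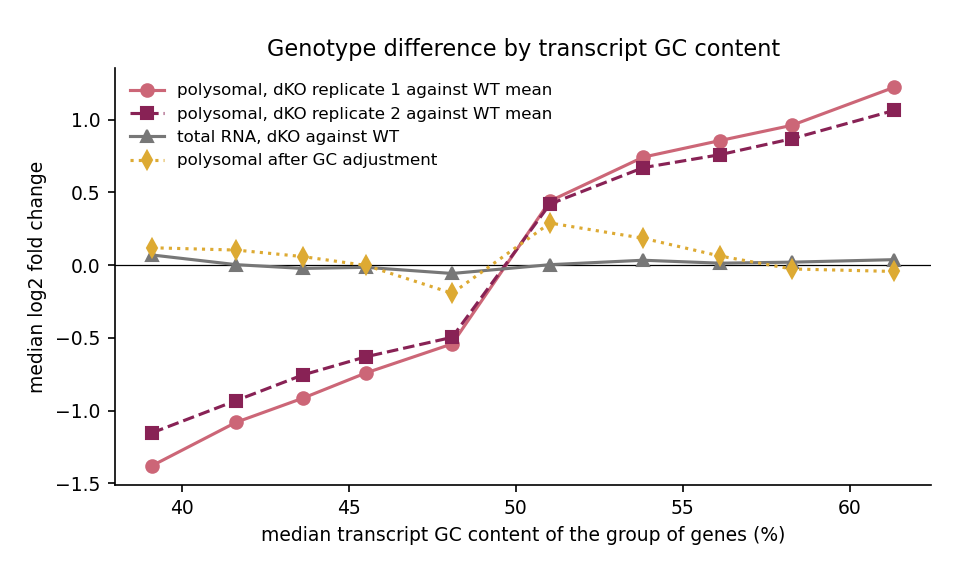
Median log2 fold change of dKO against WT (y axis) over 10 equal groups of genes, placed at their median transcript GC content (x axis, %), for each dKO polysomal replicate against the WT mean, for total RNA and for polysomal RNA after GC adjustment. The medians of dKO replicate 1 climb from -1.38 to 1.22 and those of replicate 2 from -1.15 to 1.06, while total RNA stays near 0.

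The deleted genes were checked first. Lin28a (chr4:134003330-134018841 in GRCm38, minus strand) had 103 and 92.8 CPM in the WT libraries and 15.6 and 14.8 in the dKO libraries. Lin28b (chr10:45376620-45486395, minus strand) had 153 and 142 CPM in WT and 41.5 and 30.5 in dKO. Both genes were well below WT in each dKO library, with no overlap, and neither was at 0. Lin28a fell by 2.69 (SE 0.15, adjusted p 8.6e-05 by edgeR), and Lin28b fell by 2.06 (SE 0.16, adjusted p 0.000145 by edgeR), on the log2 scale. After GC adjustment the values were -2.69 and -0.85, and in total RNA -3.35 and -1.28. The labels do not say which exons the alleles lack, so the counts left in the dKO libraries cannot be assigned to any part of the transcripts.

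The let-7 microRNAs that Lin28 restrains share a seed, and the sequences below show that seed beside the sites it matches in Hmga2 and Igdcc3. Mature sequences are from RefSeq (GRCm38.p6), with bases 2 to 8, the seed, in capitals, and 10 of the 11 family entries read have the seed GAGGUAG.
let-7a-5p: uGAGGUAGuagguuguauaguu
let-7b-5p: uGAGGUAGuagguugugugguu
let-7c-5p: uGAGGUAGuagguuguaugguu
let-7d-5p: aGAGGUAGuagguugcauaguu
let-7e-5p: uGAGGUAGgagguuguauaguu
let-7f-5p: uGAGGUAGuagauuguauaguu
let-7g-5p: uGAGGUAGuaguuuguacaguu
let-7i-5p: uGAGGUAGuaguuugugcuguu
miR-98-5p: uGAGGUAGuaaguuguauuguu
The let-7j entry differs at the last seed base.
let-7j: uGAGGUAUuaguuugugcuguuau
Hmga2 carries 4 matches to the seed in its 3′UTR, read here from GENCODE M21 on GRCm38 as the mRNA strand, with the match CTACCTC in capitals and 11 bases on each side. The match of site 1 begins 58 bases after the stop codon (window chr10:120364214-120364242, minus strand), site 2 at 1295 bases (chr10:120362977-120363005), site 3 at 1733 bases (chr10:120362539-120362567) and site 4 at 2591 bases (chr10:120361681-120361709).
Hmga2 site 1: acattcaatttCTACCTCagcatcagttg
Hmga2 site 2: actcctcaataCTACCTCtgaatgctaca
Hmga2 site 3: tttgcaaggaaCTACCTCcacacttccaa
Hmga2 site 4: aaaacacactaCTACCTCttaagtcccag
Igdcc3 carries 2 matches, at 388 bases (chr9:65185711-65185739, plus strand) and 468 bases (chr9:65185791-65185819, plus strand) after its stop codon.
Igdcc3 site 1: actctcagcacCTACCTCagccggaatga
Igdcc3 site 2: cgaaagcactcCTACCTCaagccccttaa
A match is a description of the letters and not evidence of binding.

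Of the 44 genes listed as Lin28 genes and let-7 targets, 34 are in the polysomal table, and 29 were lower, 4 higher and 1 was not called. Their median log2 fold change was -1.01, beside -0.35 for all tested genes. After GC adjustment 17 were lower and 3 higher (median -0.35). In total RNA 25 of these genes were lower and 2 higher (median -0.40). The adjusted p of the called genes named in the paragraphs below lay between 8.6e-05 and 0.0301 by edgeR's quasi-likelihood test, with 2 libraries per genotype. Rises, falls and single values given for these genes are log2 fold changes of dKO against WT.

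Hmga2, a chromatin protein of dividing embryonic cells and the best known let-7 target, had 457 and 462 CPM in the WT libraries and 80.3 and 84.5 in the dKO libraries. Its dKO levels were close to each other and far below both WT levels. It fell by 2.48 (SE 0.074) on the log2 scale, with -1.80 after GC adjustment and -1.61 in total RNA. Onecut2, a transcription factor of early neurons, had 926 and 948 CPM in WT and 182 and 163 in dKO and a log2 fold change of -2.45 ± 0.074 (SE). After GC adjustment Onecut2 stood at -1.44, and in total RNA at -1.10. Its relative Onecut3 had 40.5 and 43.7 CPM in the WT libraries and 5.59 and 1.58 in the dKO libraries. Onecut3 was low in both dKO libraries, which also differed from each other, and its log2 fold change of -3.69 ± 0.41 (SE) was -4.73 without dKO replicate 1 and -2.94 without dKO replicate 2.

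Igdcc3, a cell surface protein with immunoglobulin domains, had 571 and 549 CPM in WT and 261 and 216 in dKO, with a log2 fold change of -1.24 ± 0.097 (SE). In total RNA it was -2.08 and after GC adjustment -2.32, so the unadjusted polysomal value was the smallest of these. Arid3b, a DNA-binding protein, had 79.99 and 75.7 CPM in the WT libraries and 25.6 and 27.4 in the dKO libraries and a log2 fold change of -1.55 ± 0.13 (SE). The RNA-binding proteins Igf2bp1, Igf2bp2 and Igf2bp3 were also lower, at -1.05 ± 0.070 (SE), -1.17 ± 0.070 (SE) and -1.07 ± 0.082 (SE). Igf2bp1 went from 547 and 559.9 CPM in the WT libraries to 255 and 279 CPM in the dKO libraries. The total RNA values of the Igf2bp genes were -1.03, -0.98 and -0.47. The phosphatase gene Dusp9 stood at -1.60 ± 0.27 (SE) and Nr6a1, an orphan nuclear receptor of early embryos, at -1.40 ± 0.31 (SE). Nr6a1 had 52.5 and 55.96 CPM in WT and 28.5 and 13.8 in dKO, so the dKO replicates stood apart from each other but both stayed below WT. After GC adjustment Dusp9 was -2.55 and Igf2bp3 -0.41. Fignl2 had 121 and 117 CPM in the WT libraries and 99.7 and 64.2 in the dKO libraries. Its log2 fold change of -0.55 ± 0.20 (SE) was called, with an adjusted p of 0.0301 by edgeR, and it was -1.89 after GC adjustment and -1.89 in total RNA. The unadjusted call was lost under RLE scaling (-0.31, adjusted p 0.205), with DESeq2 (-0.30, adjusted p 0.176), after length adjustment (-0.39, adjusted p 0.108 by edgeR) and without WT replicate 1 (adjusted p 0.0559 by edgeR). Without dKO replicate 1 its value was -0.89, and without dKO replicate 2 -0.29.

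Some listed targets did not fall with the rest. Hmga1, the relative of Hmga2, had 7.88 and 10.4 CPM in WT and 34.1 and 19.1 in dKO and rose by 1.51 ± 0.34 (SE), but after GC adjustment it stood at 0.33 and was no longer called. Igdcc4 rose by 0.87 ± 0.12 (SE) and Mycn, a driver of progenitor growth, by 0.79 ± 0.090 (SE). After GC adjustment neither was called (0.21 and 0.15). The cyclin gene Ccnd1 had 1048 and 1058 CPM in the WT libraries and 1391 and 1292 in the dKO libraries and rose by 0.35 ± 0.058 (SE), with 0.23 after GC adjustment, whereas in total RNA it was -0.23. E2f6, a transcriptional repressor, had 193 and 183 CPM in WT and 171 and 112 in dKO, and its log2 fold change of -0.42 ± 0.19 (SE) was not called (adjusted p 0.0639 by edgeR).

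**Figure D3:**
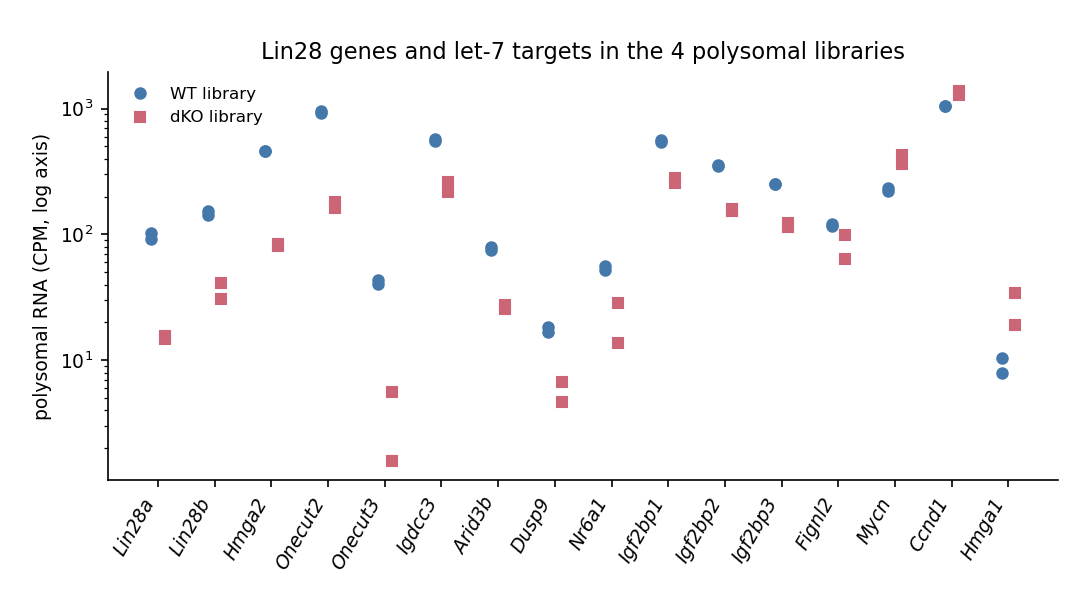
CPM (y axis, log scale) of Lin28a, Lin28b and 14 let-7 target genes (x axis) in each of the 4 polysomal libraries, circles for WT and squares for dKO. Lin28a, Hmga2 and Onecut2 show a wide gap between the genotypes, and Ccnd1 and Mycn lie higher in the dKO libraries.

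Seed matches were also counted over all genes. Of 5578 tested genes with an annotated 3′UTR, 624 (11.2%) held CTACCTC on the mRNA strand, against 9.07% of the 20038 3′UTRs of both tables. The 4954 genes without a match had a median log2 fold change of -0.33. Genes with 1 match (532) had a median of -0.47, those with 2 (74) of -0.59 and those with 3 or more (18) of -0.89. The medians were lower with more matches, but the 3′UTRs also grew longer, from a median of 1236 bases without a match to 4676 with 3 or more. Among 3′UTRs over the median length, genes without a match (2286) had a median of -0.54 and genes with 1 or more (501) of -0.57. After GC adjustment the medians for 0, 1, 2 and 3 or more matches were 0.039, 0.058, 0.16 and -0.43, so that only the group with 3 or more lay below the rest. In total RNA this group of 18 genes had a median of -0.53, against 0.011 without a match.

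Genes of microRNA processing and silencing were lower without exception among those in the polysomal table, 9 of 9, with a median of -0.53. The gene list holds 21. After GC adjustment 2 were lower and 2 higher. Drosha, the nuclear enzyme that cuts primary microRNAs, had 366 and 353 CPM in the WT libraries and 247 and 249 in the dKO libraries and fell by 0.53 (SE 0.065), with -0.81 after GC adjustment. Dicer1, which makes the mature duplex, fell by 0.64 (SE 0.084) and was not called after GC adjustment (-0.20). Zcchc11, the uridylase that Lin28a recruits to let-7 precursors, fell by 0.76 (SE 0.091) but stood higher, at 0.26, after GC adjustment.

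The largest rises at a mean of at least 5 CPM were of Mir6236, Rn45s and Lars2, and the 10 largest also held the protein-coding genes Hoxc10, Hoxc9, Hoxa6 and Neurod2. Rn45s, the 45S ribosomal RNA precursor, had 1134 and 1031 CPM in WT and 104722 and 46623 in dKO and a log2 fold change of 6.13 ± 0.42 (SE). Lars2, which encodes the mitochondrial leucyl-tRNA synthetase, had 57.2 and 63.9 CPM in the WT libraries and 5488 and 2621 in the dKO libraries and a log2 fold change of 6.06 ± 0.39 (SE). Mir6236, a microRNA locus at chr9:110281287-110281409 (GRCm38, plus strand), had 5.78 and 10.2 CPM in WT and 2585 and 1207 in dKO and a log2 fold change of 7.88 ± 0.50 (SE). In each of these genes dKO replicate 1 was well above dKO replicate 2, and both were far above the WT libraries. Together they took 0.127% and 0.117% of the listed counts in the WT libraries and 10.3% and 4.96% in the dKO libraries. Without dKO replicate 1 the log2 fold changes were 5.43 for Rn45s, 5.43 for Lars2 and 7.22 for Mir6236. In total RNA Rn45s and Lars2 were lower (-0.94 and -0.46) and Mir6236 was not called (-0.15). The mature miR-6236 is shown because its locus had the largest rise of the named genes, with its seed in capitals.
miR-6236: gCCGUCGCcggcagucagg
Its sequence was found in the transcripts of 1 GENCODE gene. Only GENCODE transcripts were searched, so a copy in RNAs outside that set would have been missed. Whether the reads over Mir6236 and over Lars2 came from their own loci alone was not tested. Fitting the table without Rn45s, Lars2 and Mir6236 left 2726 genes higher and 3035 lower. The scaling by trimmed means sets extreme genes aside and nearly every listed gene is called, so these counts could hardly change. The part of these RNAs in the other results was not tested.

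MicroRNA loci were mostly higher, and small nucleolar RNA loci went both ways. Of 11 tested microRNA loci and hosts, 10 were higher and 1, the host gene Mir17hg, was lower, with a median of 3.62 (3.55 when Mir17, at 0 counts in WT, is put at its bound). In total RNA their median was 0.035. Of 16 listed loci and hosts, these 11 passed the filter on low counts. Mir17, Mirlet7i and Mir320 were too rare in the WT libraries to pass it there and passed only through the dKO libraries. A locus that rare in WT could be tested only if it was high in dKO, so the count and the median follow in part from the filter. Mirlet7i, a let-7 locus, had 7 and 6 counts in the WT libraries and 37 and 19 in the dKO libraries and a log2 fold change of 4.07 ± 0.73 (SE), which was 3.17 without dKO replicate 1 and 4.68 without dKO replicate 2. Mir320 had 9 and 4 counts in the WT pair and 52 and 25 in the dKO pair and a log2 fold change of 4.54 ± 0.78 (SE), which ranged from 3.57 to 5.25 when a library was left out. Mir682 had 141 and 126 CPM in the WT libraries and 621 and 473 in the dKO libraries and rose by 2.03 ± 0.14 (SE), with 0.85 after GC adjustment. These libraries were not made for mature microRNAs, so the counts describe longer RNAs over the loci. After GC adjustment 7 microRNA loci were higher and 0 lower. Of 8 small nucleolar RNA loci 5 were higher and 3 lower, in both fits. Snord17 and Snord15a, among the 10 largest rises at a mean of at least 5 CPM, rose by 3.31 ± 0.29 (SE) and 3.11 ± 0.38 (SE). The lower ones were Snora23, Snora74a and Snord32a, named after their values were seen. Snora23 had 269 and 192 counts in the WT pair and 3 and 17 in the dKO pair, and Snora74a had 187 and 178 counts in the WT libraries and 8 and 28 in the dKO libraries. Snord32a had 27 and 35 counts in the WT pair and 0 and 0 in the dKO pair. Snora74a was not called without WT replicate 1 or 2 (adjusted p 0.0887 and 0.0646 by edgeR), nor Snord32a without WT replicate 1 (adjusted p 0.0515 by edgeR). Scarna2, a Cajal body RNA, rose by 2.36 ± 0.089 (SE), with 1.03 after GC adjustment.

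The largest falls were of genes that were rare in the dKO libraries. Snhg3, a host of small nucleolar RNAs, had 276 and 318 counts in the WT libraries and 0 and 3 in the dKO libraries. Its log2 fold change was -5.67 ± 0.56 (SE), and without dKO replicate 1 -4.95. dKO replicate 1 held no count of it. Zxda, a zinc finger gene, had 19.6 and 20.9 CPM in WT and 0.882 and 1.18 in dKO, and its log2 fold change of -4.24 ± 0.34 (SE) was -5.78 after GC adjustment. Pigf, an enzyme of GPI anchor synthesis, had 29.2 and 29.7 CPM in the WT libraries and 1.18 and 1.97 in the dKO libraries and a log2 fold change of -4.16 ± 0.30 (SE). Gt(ROSA)26Sor, the noncoding gene trap locus much used in mouse genetics, had 25.3 and 27.3 CPM in WT and 0.882 and 2.17 in dKO and a log2 fold change of -3.997 ± 0.35 (SE), or -4.91 without dKO replicate 2 and -2.47 after GC adjustment. In total RNA Zxda, Pigf and Gt(ROSA)26Sor were not called (-0.077, 0.13 and 0.22).

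Cenph, a centromere protein, had 39.7 and 41.5 CPM in the WT libraries and 4.71 and 1.38 in the dKO libraries, and Anapc10, a subunit of the anaphase-promoting complex, had 21.3 and 20.4 CPM in WT and 0.294 and 2.36 in dKO. The log2 fold change of Cenph, -3.87 ± 0.40 (SE), was -4.87 without dKO replicate 1 and -3.14 without dKO replicate 2. That of Anapc10, -3.78 ± 0.49 (SE), was -3.14 and -6.13, and -2.47 after GC adjustment. Ndufa12, a complex I subunit, had 13.5 and 15.5 CPM in the WT libraries and 1.76 and 0.984 in the dKO libraries and fell by 3.46 (SE 0.39). Ankdd1b had 143 and 175 counts in the WT pair and 0 and 7 in the dKO pair. The histone gene Hist1h2ad had 156 and 195 counts in the WT libraries and 0 and 9 in the dKO libraries. Both were at 0 in dKO replicate 1, and without it their log2 fold changes of -3.59 ± 0.67 (SE) and -3.38 ± 0.67 (SE) were -2.84 and -2.62.

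The gene lists differed widely in their medians, from -1.60 for sex-linked genes and -1.13 for erythroid genes to 3.62 for microRNA loci among lists with at least 3 tested members. The plot of list medians shows the unadjusted and GC-adjusted values of most lists side by side.

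**Figure D4:**
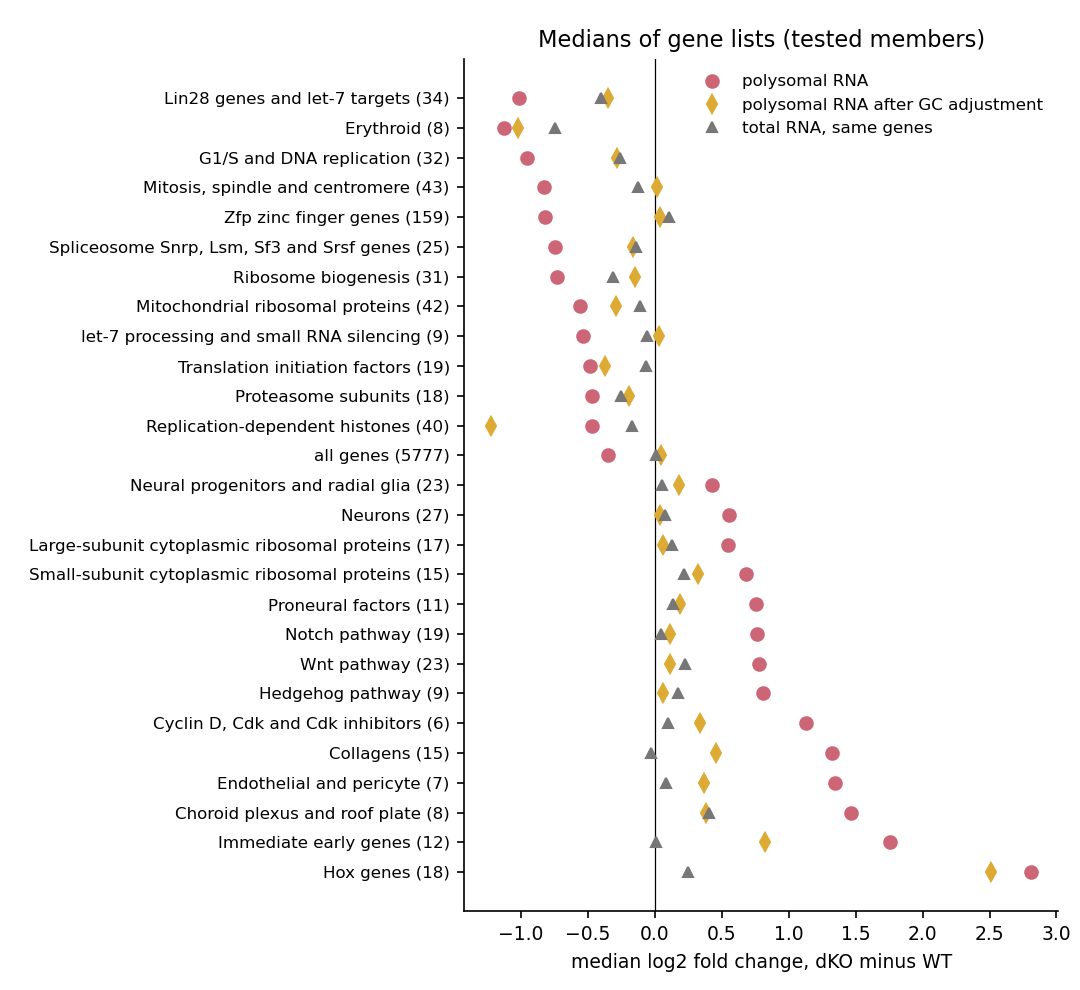
Median log2 fold change of dKO against WT (x axis) of 26 gene lists and of all tested genes (y axis, tested members in parentheses), in polysomal RNA, after GC adjustment and in total RNA for the same genes. Hox genes lie furthest to the right, at 2.81, and the GC-adjusted median is nearer 0 than the unadjusted one for every list shown except the histones.

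The protein synthesis machinery did not move as one group. Of 19 initiation factors, 14 were lower and 4 higher (median -0.49, GC-adjusted -0.37). Eif4e, which binds the mRNA cap, had 238 and 236 CPM in WT and 61.2 and 81.3 in dKO and fell by 1.72 (SE 0.14), with -0.52 after GC adjustment and -0.070 in total RNA. Eif1a, a factor of start codon scanning, fell by 1.65 (SE 0.13), with -0.39 after GC adjustment. Eif5a had 966 and 968 CPM in the WT libraries and 829.7 and 909 in the dKO libraries and its value of -0.15 ± 0.063 (SE) was not called (adjusted p 0.0517 by edgeR), but after GC adjustment it was called at -0.81. Elongation and release factors were higher in 6 of 9 cases (median 0.46). Eef1a1, which brings aminoacyl-tRNA to the ribosome, had 2648 and 2670.2 CPM in WT and 4355 and 4172 in dKO and rose by 0.68 ± 0.048 (SE), with 1.11 after GC adjustment and 0.22 in total RNA. Eef2, which moves the ribosome along, had 3508 and 3579 CPM in the WT libraries and 6159 and 6149 in the dKO libraries and rose by 0.80 ± 0.044 (SE), but stood at -0.048 after GC adjustment. Abce1, which splits ribosomes after termination, fell by 1.81 (SE 0.16), with -0.59 after GC adjustment.

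Ribosomal protein genes went both ways. Only 17 of 42 large-subunit and 15 of 32 small-subunit genes were listed, and many have processed pseudogenes that can share their reads. In the large subunit 10 were higher and 7 lower (median 0.55, GC-adjusted 0.059). In the small subunit 10 were higher and 5 lower (median 0.68, GC-adjusted 0.32). Rpl6 had 185 and 184 CPM in WT and 581 and 589.9 in dKO and rose by 1.67 ± 0.060 (SE), with 1.58 after GC adjustment. Rps19 rose by 1.54 ± 0.076 (SE), with 116 and 112 CPM in the WT and 341 and 323 CPM in the dKO libraries. Rpl39 had 271 and 282 CPM in the WT libraries and 39.7 and 52.96 in the dKO libraries and fell by 2.56 (SE 0.14), with -2.32 after GC adjustment, while in total RNA it was 0.45. Rps6 fell, to -2.17 ± 0.27 (SE), although in total RNA it was above 0 and not called (0.28). Rpl39 and Rpl6 have transcript GC contents of 48.7 and 50.7%.

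A start of C followed by 4 bases that are each C or T, the form of a terminal oligopyrimidine motif, stood at the RefSeq start site of 109 tested genes and at 2.51% of 32851 promoters. Those genes had a median of -0.33, beside -0.36 for 4407 genes with another start. Ribosomal protein genes are the best known carriers of this motif, but only 4 of them had it at the start site used here (median 0.14) and 18 did not (median 0.81), so these start sites miss most known carriers. Ribosome biogenesis genes were lower in 24 of 31 cases (median -0.73, GC-adjusted -0.15). Nop10, a core protein of pseudouridine guides, had 117 and 125 CPM in WT and 22.6 and 22.2 in dKO and fell by 2.43 (SE 0.12), with -1.87 after GC adjustment. Npm1, a nucleolar chaperone, fell by 1.62 (SE 0.075), with -0.60 after GC adjustment. Of the aminoacyl-tRNA synthetases 6 were higher and 7 lower, among them Rars, which fell by 1.71 (SE 0.11), with -1.06 after GC adjustment. Mitochondrial ribosomal proteins were lower in 26 and higher in 16 of 42 cases (median -0.56), from Mrpl42 at -2.06 ± 0.15 (SE) to Mrpl52 at 1.56 ± 0.093 (SE). After GC adjustment Mrpl42 was -1.52 and Mrpl52 0.68.

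Growth signalling was split. Among 21 listed members of insulin, IGF and mTOR signalling, 11 were higher and 10 lower. Igfbp2, a secreted IGF-binding protein, had 384 and 377 CPM in the WT libraries and 955 and 833 in the dKO libraries and rose by 1.23 ± 0.079 (SE), but stood at 0.0091 after GC adjustment and was not called. Rps6kb1, the kinase that phosphorylates ribosomal protein S6, fell by 1.30 (SE 0.12) and stood at 0.034 after GC adjustment. The glycolytic enzyme gene Pkm rose by 0.68 ± 0.064 (SE) and was -0.22 after GC adjustment and -0.53 in total RNA. Of 8 listed glycolysis genes 2 were higher and 6 lower.

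Cell cycle genes were mostly lower. Of 43 genes of mitosis, spindle and centromere 42 were lower (median -0.83), and after GC adjustment 13 were lower and 11 higher (median 0.014). Of 32 genes of the G1/S step and DNA replication 28 were lower (median -0.96), and after GC adjustment 10 were lower and 2 higher. Ccnb1, the mitotic cyclin, had 93.5 and 91.2 CPM in WT and 13.8 and 19.1 in dKO and fell by 2.46 (SE 0.17), with -1.62 after GC adjustment and 0.046 in total RNA, where it was not called. Nusap1, a spindle protein, stood at -2.19 ± 0.15 (SE), and Cenpk, a centromere protein, at -3.05 ± 0.31 (SE). After GC adjustment they were -1.11 and -1.43. Both dKO libraries of Nusap1 (26.2 and 35.2 CPM) lay far under the WT libraries (142 and 142 CPM). The replication genes Cdc45 and Pole2 fell, with log2 fold changes of -1.70 ± 0.17 (SE) and -2.22 ± 0.27 (SE), and after GC adjustment were -1.56 and -1.43.

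The cyclin D, Cdk and Cdk inhibitor genes went the other way, with 6 of 6 tested higher, of 12 on the list (median 1.13, GC-adjusted 0.33). Cdkn1c, the p57 inhibitor of cells that leave the cycle, had 587 and 611 CPM in the WT libraries and 1659 and 1479 in the dKO libraries and rose by 1.39 ± 0.072 (SE), with 0.36 after GC adjustment, while in total RNA it was -0.11. Cdkn2c (p18) rose by 1.48 ± 0.17 (SE) and Cdkn1a (p21) by 1.21 ± 0.17 (SE), and after GC adjustment they were 0.55 and 0.60. Cdk4, the partner of cyclin D, had 1823 and 1799.7 CPM in WT and 2549 and 2613 in dKO and rose by 0.51 ± 0.047 (SE), but stood at 0.043 after GC adjustment and was not called. Genes of the p53 list were higher in 7 of 12 cases, and those of the Myc and Max network in 5 of 7.

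The tissue label was checked against markers of neural progenitors and neurons, and both were present in all libraries. Nes, the intermediate filament of neural progenitors, had 1263 and 1245 CPM in the WT libraries and 2743 and 2567 in the dKO libraries. Tubb3, the neuronal tubulin, had 1143 and 1140.5 CPM in WT and 1075 and 1000.2 in dKO. Nes was higher in both dKO libraries and rose by 1.08 ± 0.055 (SE), with 0.37 after GC adjustment and -0.30 in total RNA. Tubb3 at -0.14 ± 0.058 (SE) was not called (adjusted p 0.0529 by edgeR), but after GC adjustment it was called at -1.05. Of 23 progenitor genes 15 were higher and 8 lower (median 0.42, GC-adjusted 0.18). Nfix, a factor of later glial and neuronal steps, had 18.9 and 18.5 CPM in the WT libraries and 109.99 and 79.3 in the dKO libraries and rose by 2.33 ± 0.19 (SE), with 1.47 after GC adjustment and 1.44 in total RNA. Ptn, a secreted growth factor, had 141 and 133 CPM in WT and 272 and 302 in dKO and rose by 1.07 ± 0.088 (SE), with 1.89 after GC adjustment. Id2, an inhibitor of basic helix-loop-helix factors, had 276 and 277 CPM in the WT libraries and 85.9 and 85.1 in the dKO libraries and fell by 1.69 (SE 0.079), with -0.95 after GC adjustment, while in total RNA it was 0.23. Rfx4, a ciliary transcription factor, fell by 1.02 (SE 0.093).

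In the list of proneural factors 7 of 11 genes were higher, and after GC adjustment 5 were higher and 4 lower. The list also holds Id2, given above as an inhibitor, and its relatives Id1 and Id3, so these counts are not of proneural factors alone. Neurod2, a factor of young excitatory neurons, had 3.62 and 5.28 CPM in WT and 39.7 and 42.1 in dKO and rose by 3.20 ± 0.25 (SE), with 2.22 after GC adjustment and 2.86 in total RNA. Neurog2, which starts neuronal differentiation, had 168 and 174 CPM in the WT libraries and 409.7 and 337 in the dKO libraries and rose by 1.12 ± 0.11 (SE), with 0.37 after GC adjustment. Neurod4 went the other way, from 87.9 and 90.2 CPM in WT to 20.3 and 17.3 CPM in dKO, and fell by 2.25 (SE 0.14), with -0.80 after GC adjustment. Of 27 neuron genes 17 were higher and 9 lower (median 0.56), and after GC adjustment 4 were higher and 7 lower (median 0.036). Nefm, a neurofilament subunit, had 165 and 158 CPM in WT and 44.7 and 57.3 in dKO and fell by 1.65 (SE 0.13), with -2.54 after GC adjustment and -1.30 in total RNA. Stmn3, a microtubule regulator, rose by 1.51 ± 0.12 (SE), with 0.64 after GC adjustment, and Slc17a8, a vesicular glutamate transporter, by 1.52 ± 0.23 (SE), with 2.38 after GC adjustment. The latter had 10.1 and 10.6 CPM in the WT libraries and 24.998 and 34.1 in the dKO libraries and was 1.55 in total RNA.

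Signalling and patterning lists were mostly higher before GC adjustment. In the Notch pathway, which holds back neuronal differentiation, 15 of 19 genes were higher (median 0.76, GC-adjusted 0.12), and after GC adjustment 7 were higher and 4 lower. The receptor gene Notch3 had 288 and 301 CPM in WT and 827 and 649 in dKO and rose by 1.32 ± 0.12 (SE), with 0.27 after GC adjustment, and was -0.34 in total RNA. Hes6, which opposes Notch output, rose by 1.41 ± 0.12 (SE), with 0.31 after GC adjustment. In the Hedgehog pathway 7 of 9 were higher, and after GC adjustment 4 were higher and 2 lower. The ligand Shh had 68.05 and 74.98 CPM in the WT libraries and 138 and 115 in the dKO libraries and rose by 0.82 ± 0.13 (SE), with 0.49 after GC adjustment, while in total RNA it was -0.29. Smo, the signalling receptor of the pathway, rose by 1.37 ± 0.089 (SE), with 0.45 after GC adjustment. In the Wnt pathway 15 of 23 were higher, but after GC adjustment 6 were higher and 6 lower (median 0.11). The ligand Wnt1 had 10.5 and 11.54 CPM in WT and 41.2 and 28.5 in dKO and rose by 1.64 ± 0.24 (SE), but was not called after GC adjustment (0.52). Sp5, a Wnt target, rose by 1.84 ± 0.17 (SE), with 0.63 after GC adjustment.

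Of the regional patterning genes, 7 of 7 tested forebrain genes, of 27 on the list, were higher (median 0.84, GC-adjusted 0.34). Bcl11b, a factor of cortical projection neurons, had 64.4 and 63.4 CPM in the WT libraries and 148 and 138 in the dKO libraries and rose by 1.16 ± 0.097 (SE), with 1.17 after GC adjustment and 0.53 in total RNA. Lhx2, a selector of the cortex, had 405 and 425 CPM in WT and 918 and 849.8 in dKO and rose by 1.09 ± 0.065 (SE), but stood at 0.13 after GC adjustment and was not called. Of 16 midbrain and hindbrain genes 11 were higher and 5 lower (median 0.79, GC-adjusted -0.0036), and after GC adjustment 3 were higher and 5 lower. Otx2, which marks forebrain and midbrain, fell by 0.96 (SE 0.15), with -0.45 after GC adjustment. Axon guidance genes were higher in 18 of 25 cases, but after GC adjustment 5 were higher and 5 lower (median 0.14).

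Hox genes, which set position along the body axis, included some of the largest rises. Only 19 of 52 were listed and 18 were tested. 15 of them were higher and 3 lower (median 2.81, GC-adjusted 2.51), and in total RNA 6 were higher and 1 lower (median 0.24). Hoxc10 had 15 and 14 counts in the WT libraries and 51 and 58 in the dKO libraries and rose by 3.84 ± 0.39 (SE), with -0.084 in total RNA, not called. Hoxc9 had 22 and 11 counts in the WT pair and 70 and 36 in the dKO pair, and its log2 fold change of 3.68 ± 0.67 (SE) lay between 2.77 and 4.31 when a library was left out. Hoxa6 had 7 and 28 counts in the WT libraries and 34 and 59 in the dKO libraries, and its value of 3.31 ± 0.59 (SE) was 2.65 without WT replicate 1 and 4.56 without WT replicate 2. These rises rest on few counts in the WT libraries. Hoxd9 had 0 and 0 counts in the WT pair and 15 and 8 in the dKO pair and was at least 15.98-fold higher in dKO, with the WT libraries set to a floor of 3 counts each. Hoxc10, Hoxc9, Hoxa6 and Hoxd9 did not meet the filter on low counts in both WT libraries and entered the test with the help of the dKO libraries. Genes so rare in WT could be tested only if they were higher in dKO, so the share and the median of the Hox genes follow in part from the filter.

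Hoxb6 had 14.2 and 13.3 CPM in the WT libraries and 47.1 and 49.6 in the dKO libraries and rose by 1.82 ± 0.16 (SE), with 1.17 after GC adjustment and 0.69 in total RNA. Hoxb7 had 1.97 and 2.09 CPM in WT and 13.2 and 13.8 in dKO and rose by 2.73 ± 0.32 (SE). Hoxb9 had 1.97 and 3.99 CPM in the WT libraries and 19.1 and 15.2 in the dKO libraries and rose by 2.51 ± 0.41 (SE), or by 3.11 without WT replicate 2, with 1.87 in total RNA. The genes that were lower, Hoxb1, Hoxc4 and Hoxa2, stand at the anterior end of their clusters. Hoxb1 had 100 and 141 counts in the WT pair and 2 and 10 in the dKO pair and a log2 fold change of -2.42 ± 0.53 (SE), or -3.68 without dKO replicate 2, and its adjusted p without WT replicate 2 was 0.0601 by edgeR. Hoxc4 had 36.2 and 43.01 CPM in the WT libraries and 24.7 and 19.3 in the dKO libraries and fell by 0.86 (SE 0.20), with -1.40 after GC adjustment and an adjusted p of 0.0907 by edgeR without WT replicate 2 and 0.0546 by DESeq2. Hoxa2 had 58.4 and 60.3 CPM in WT and 39.997 and 43.5 in dKO and fell by 0.50 (SE 0.13), but was not called after GC adjustment (-0.29) or without either WT replicate (adjusted p 0.105 and 0.138 by edgeR), nor under RLE scaling (adjusted p 0.0861 by edgeR) or with DESeq2 (adjusted p 0.259). Hoxb2, also anterior in its cluster, was among those that were higher.

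Immediate early genes are switched on within minutes of a stimulus and make short-lived RNAs. They were higher in all 12 tested cases, of 28 on the list (median 1.76, GC-adjusted 0.82). In total RNA their median was 0.010. After GC adjustment 7 were higher and 1 lower. Jund had 475 and 473 CPM in the WT libraries and 1746 and 1479 in the dKO libraries and rose by 1.76 ± 0.087 (SE), with 0.27 after GC adjustment. Junb had 4.003 and 3.99 CPM in WT and 36.2 and 13.98 in dKO and rose by 2.61 ± 0.48 (SE), or by 1.80 without dKO replicate 1, with 1.34 after GC adjustment. The orphan receptor gene Nr4a1 had 5.65 and 4.97 CPM in the WT libraries and 24.1 and 19.3 in the dKO libraries and rose by 2.02 ± 0.26 (SE), with 1.18 after GC adjustment. In total RNA Jund, Junb and Nr4a1 were not called (0.052, -0.032 and 0.081).

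Markers of other cell types moved with the genotype. Of 8 red cell genes 7 were lower (median -1.13, GC-adjusted -1.02, total RNA -0.75). The summed level of the list was 9043 and 8914 CPM in the WT and 5099.97 and 5122 CPM in the dKO libraries. Hba-x, an embryonic globin gene, had 2472 and 2433 CPM in WT and 1021 and 999 in dKO and fell by 1.28 (SE 0.049), with -2.01 after GC adjustment and -0.67 in total RNA. Its beta-like partner Hbb-bh1 fell by 1.36 (SE 0.065), with -0.84 after GC adjustment and -1.10 in total RNA.

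Endothelial and pericyte genes were higher in 6 of 7 cases (summed 266 and 257 CPM in WT, 613 and 591 CPM in dKO). Among them are Col4a1 and Col4a2, which are also counted among the collagens below. Cldn5, a tight junction protein of vessels, had 47.02 and 44.7 CPM in the WT libraries and 168 and 123 in the dKO libraries and rose by 1.66 ± 0.16 (SE), with 0.55 after GC adjustment, while Emcn, a vessel sialomucin, had 27.6 and 26.1 CPM in WT and 5.59 and 3.94 in dKO and fell by 2.53 (SE 0.25), with -1.43 after GC adjustment. Both are markers of endothelial cells, and in total RNA neither was called (0.014 and 0.086). Mesenchyme and somite genes were higher in 7 and lower in 4 of 11 cases (summed 875 and 877 CPM in WT, 1825 and 1579 CPM in dKO). The sum includes Col1a1, Col2a1 and Col3a1, which are also counted among the collagens below. Col3a1 alone held 209 and 207 CPM in WT and 681 and 563 CPM in dKO. The higher sum therefore does not speak for the other members. Choroid plexus and roof plate genes were higher in 7 of 8 cases (summed 340.05 and 336 CPM in WT, 531 and 595 CPM in dKO). Ttr, the transport protein of the choroid plexus, had 15.9 and 16.5 CPM in the WT libraries and 115 and 129 in the dKO libraries and rose by 2.91 ± 0.13 (SE), with 3.48 after GC adjustment and 1.79 in total RNA. Msx1, a roof plate factor, had 31.5 and 37.6 CPM in WT and 124 and 132 in dKO and rose by 1.89 ± 0.13 (SE), with 0.95 after GC adjustment and -0.22 in total RNA, where it was not called. Of the neural crest genes 2 were higher and 3 lower, of the macrophage genes 1 and 1, and the 1 muscle gene was higher. None of 14 epithelial markers was listed. After GC adjustment 2 endothelial and pericyte genes were higher and 1 lower, 2 and 3 of the mesenchyme and somite genes, and 3 and 1 of the choroid plexus and roof plate genes. The part of these cell types in the other results was not tested.

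Collagen genes were higher in all 15 tested cases, of 33 on the list (median 1.32, GC-adjusted 0.46 with 5 still called). Their median in total RNA was -0.032. Col1a1, Col2a1, Col3a1, Col4a1 and Col4a2 are also counted in the mesenchyme or endothelial lists above, so these results are not separate. Col1a1, of skin, bone and meninges, had 69.2 and 69.6 CPM in the WT libraries and 365 and 301 in the dKO libraries and rose by 2.26 ± 0.11 (SE), with 1.26 after GC adjustment and 0.029 in total RNA, where it was not called. Col3a1 rose by 1.58 ± 0.099 (SE), with 1.22 after GC adjustment and -0.14 in total RNA. Col2a1, of cartilage and notochord, had 106 and 106 CPM in WT and 318 and 259 in dKO and rose by 1.44 ± 0.11 (SE), but stood at 0.21 after GC adjustment, not called, and at -0.82 in total RNA.

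Replication-dependent histone genes were lower in 24 and higher in 16 of 40 cases (median -0.47). Their transcripts are rich in GC, and after GC adjustment 25 were lower and 12 higher, with a median of -1.22. In total RNA 25 of them were lower and 1 higher. Hist1h2bl had 406 and 390.3 CPM in the WT libraries and 131 and 127 in the dKO libraries and fell by 1.62 (SE 0.072), with -2.91 after GC adjustment. Hist1h2bp had 6.23 and 5.46 CPM in WT and 16.5 and 23.2 in dKO and rose by 1.78 ± 0.28 (SE), whereas in total RNA it was -1.81. Histone genes are near-identical copies, so the split of reads among them is uncertain, and their RNAs lack the poly(A) tail of other messages.

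Zinc finger genes named Zfp are poor in GC, and 111 of 159 were lower (median -0.82), whereas after GC adjustment 18 were lower and 40 higher (median 0.034). Zfp493 had 8.64 and 9.76 CPM in the WT libraries and 1.47 and 0.788 in the dKO libraries and fell by 3.09 (SE 0.44), with -1.83 after GC adjustment. Spliceosome genes were lower in 20 of 25 cases (median -0.75), after GC adjustment in 9. Srsf10, a splicing repressor, had 402 and 395 CPM in WT and 72.9 and 124 in dKO and fell by 1.995 (SE 0.21), with -0.89 after GC adjustment. Proteasome genes were lower in 15 of 18 cases, after GC adjustment in 8, among them Psma2, with 236 and 242 CPM in the WT libraries and 58.5 and 85.3 in the dKO libraries, which fell by 1.72 (SE 0.16), with -0.40 after GC adjustment. Of the nuclear genes of respiratory complex I 9 were higher and 10 lower, with Ndufa2 at 1.19 ± 0.068 (SE). In complexes II to V 9 were higher and 14 lower, from Uqcrb at -2.02 ± 0.28 (SE) to Atp5e at 1.70 ± 0.066 (SE). After GC adjustment Uqcrb was -0.98 and Atp5e 1.07.

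The remaining lists were divided. Polycomb and chromatin genes were higher in 10 and lower in 10 cases, ER chaperone genes in 6 and 6, and imprinted genes in 9 and 7. Genes of the Atf4 stress response and serine synthesis were higher in 7 and lower in 3 cases. Cholesterol synthesis genes were higher in 6 and lower in 8, and CCT chaperonin genes in 1 and 3. Solute carriers were higher in 33 and lower in 34 cases. In the whole list of structured and nuclear noncoding RNAs 9 were higher and 9 lower. That list also counts Rn45s, Mir6236, Lars2 and Snhg3, described above, and Xist, described below. Lars2 encodes a protein, so these counts are not of noncoding RNAs alone. All 3 tested sex-linked genes were lower, but after GC adjustment only Xist was (median 0.057). Xist, the RNA of the inactive X chromosome, had 233 and 252 CPM in WT and 34.998 and 53.8 in dKO and fell by 2.42 (SE 0.18), and the Y-linked gene Ddx3y had 35.2 and 32.5 CPM in the WT libraries and 13.5 and 10.04 in the dKO libraries and fell by 1.54 (SE 0.21). After GC adjustment Xist was -1.31 and Ddx3y 0.10. In total RNA they went in opposite directions, with -0.61 for Xist and 0.53 for Ddx3y. Both RNAs were detected in every library, and the sex of the embryos is not given in the sources used here.

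Across 5737 genes tested in both, the Spearman correlation of the log2 fold changes was 0.196, and 0.314 with the GC-adjusted polysomal values, over libraries of the same genotypes. Of 2691 genes higher in polysomal RNA, 691 were higher and 420 lower in total RNA. Of 3030 genes lower in polysomal RNA, 525 were higher and 777 lower in total RNA. In total RNA 30.7% of all tested genes were called, 42.2% of those also listed in the polysomal table and 23.3% of the rest. The difference between the fractions was tested as a genotype by fraction term in edgeR over all 8 libraries. The polysomal table lacks genes with little polysomal difference, so a large called share follows from which genes are listed, and the counts do not compare the fractions over all genes. It was called in 5171 of 5780 genes (89.5%), with the polysomal change above that of total RNA in 2524 (43.7%) and below it in 2647 (45.8%). With the GC term taken out of this fit it was called in 41.1%.

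The polysomal change minus the total RNA change was 0.69 for Lin28a, -0.83 for Hmga2 and 0.87 for Igdcc3 on the log2 scale. For Igf2bp1 and Arid3b the difference was 0.019 (SE 0.078) and -0.029 (SE 0.17) and was not called (adjusted p 0.821 and 0.872 by edgeR). For Onecut2 the polysomal fall was deeper, with a difference of -1.31 (SE 0.077, adjusted p 6.19e-07 by edgeR). After GC adjustment the difference was 0.64 for Lin28a, -0.23 for Hmga2, -0.22 for Igdcc3 and -0.35 for Onecut2. For Igf2bp1 and Arid3b it was then -0.13 and -0.67. Genes with opposite calls in polysomal and total RNA that this term also called numbered 945, of which 420 were higher in polysomal RNA and 525 lower.

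**Figure D5:**
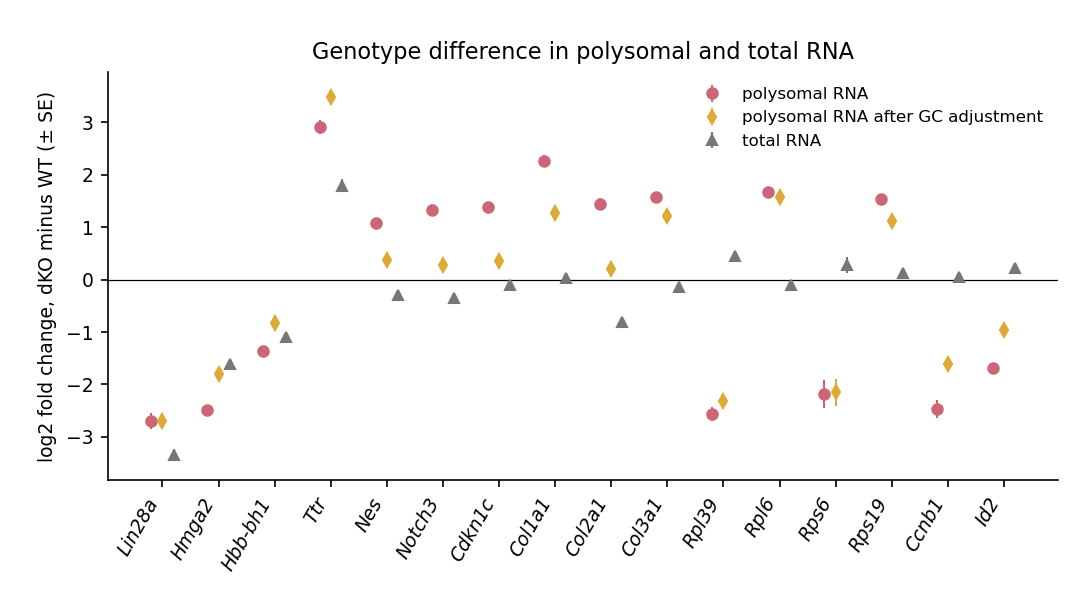
Log2 fold change of dKO against WT (y axis, ± SE) of 16 named genes (x axis) in polysomal RNA, in polysomal RNA after GC adjustment and in total RNA. Lin28a, Hmga2 and Hbb-bh1 lie below 0 in each, Rpl39 at -2.56 and 0.45 and Nes at 1.08 and -0.30 lie on opposite sides of 0 in polysomal and total RNA.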

How the data were processed

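Polysomal and total RNA were sequenced from WT and dKO tissue, 2 libraries per group, after Trizol extraction and a strand-specific NEBNext Ultra Directional library preparation, per the labels' protocols. Tools were FastQC, TopHat and HTSeq, per the submitters' processing notes, which name mm9, mm10 and GRCm38 without saying which was used where. The strand setting of the counting is not given. Raw counts per gene symbol were deposited by the authors in 2 tables, and every count column matched 1 sample name (0 columns were left over). A set of 14 rows carries names that look like dates, and these were kept as they are. The labels, which give 4 groups, were followed where the series text counts 3.

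Counts were fitted with edgeR 4.0.16 (R 4.3.3) by the quasi-likelihood test with TMM scaling, filterByExpr and Benjamini-Hochberg adjustment at 0.05, without covariates. The 4 polysomal libraries were fitted alone, and all 8 for the genotype by fraction term. Each SE was derived from the fold change and its F value, and CPM were taken over the TMM-scaled sums of the listed genes. The GC adjustment is an offset from a loess curve (span 0.5) of each library's deviation from WT on the GC content of the GENCODE M21 transcripts, matched for 5741 genes (99.4%). The fits were also run on simulated counts in which most genes were unchanged. The polysomal table has few such genes, so that run does not vouch for the calls given here. The alternatives were other scalings and filters, length adjustment, limma 3.58.1, DESeq2 1.42.0 and leaving out libraries. The coefficient of biological variation was 0.0898 in polysomal and 0.0504 in total RNA. With 2 replicates, same-numbered samples deviated together with a correlation of only 0.0615, and the numbers were not used to pair them.

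The members, gene lists and alternatives were chosen with earlier results of these data known. Named genes are Lin28a and Lin28b, the 10 largest rises and 10 largest falls at a mean of at least 5 CPM without predicted genes, the 5 largest each way after GC adjustment, and up to 6 members per list by size. Some of these are not reported here. Hmga1, Igdcc3, Igdcc4, Arid3b, Igf2bp1 to Igf2bp3, Dusp9, Fignl2, Nr6a1, E2f6, Eif5a, Tubb3, Mirlet7i, Snora23, Snora74a, Snord32a, Hoxb1, Hoxc4, Hoxa2, Hoxb2 and Hoxd9 fall outside this rule or were singled out after their values were seen.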

Additional observations from a re-analysis of the deposited data

Results flagged for a closer look

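The polysomal genotype change differed from that in total RNA, by edgeR's genotype by fraction term with an adjusted p under 0.05, upward in 2524 genes and downward in 2647, among listed genes, which lack those with little polysomal difference. In 945 of them the calls in the fractions were opposite, and 353 of these kept a call of the same sign in this term after GC adjustment.

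Among the named genes with opposite calls and a difference of at least 1 on the log2 scale, the polysomal change minus the total RNA change was highest, at 7.10, for Rn45s, followed by 6.55 for Lars2 and 3.63 for Hist1h2bp. It was 2.29 for Col2a1, 1.75 for Col3a1, 1.70 for Notch3 and 1.54 for Igfbp2. It was 1.53 for Cdkn1c, 1.42 for Nes, 1.24 for Pkm and 1.15 for Shh. Below 0 were Rpl39 at -2.96, Ddx3y at -2.04 and Id2 at -1.88. After GC adjustment the differences above 0 were, in the same order, 7.10, 6.35, 3.22, 1.06, 1.36, 0.64, 0.32, 0.49, 0.68, 0.33 and 0.78. Those below 0 were then -2.80, -0.35 and -1.22. With 2 libraries per group, single libraries were not screened for outlying values.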

How the results depend on the processing

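The counts of 2728 genes higher and 3032 lower stayed within 1.5 times under RLE and upper-quartile scaling, scaling with the empty band at 0, other filters on low counts, length adjustment, DESeq2 and limma-voom. Leaving out 1 library gave 2339 to 2715 genes higher and 2358 to 3048 lower, and for the genotype by fraction term 2380 to 2572 higher and 2433 to 2738 lower, the lone sample being assumed to vary like the other group. After GC adjustment there were 1538 higher and 1165 lower, and 1313 and 1060 for the fraction term. With an absolute log2 fold change of at least 1 there were 1071 and 1289. Of 123 named genes, 106 kept direction and call after GC adjustment. A further 10 kept direction but were no longer called, and 2 became called. The sign changed in 5 (Zcchc11 0.26, Eef2 -0.048, Ddx3y 0.10, Rps6kb1 0.034 and Pkm -0.22). Of these, Zcchc11 and Pkm were called with the new sign, and Eef2, Ddx3y and Rps6kb1 were not called. Under RLE scaling and under DESeq2, Eif5a stood at 0.084 and Tubb3 at 0.10, above 0. Of 50 list medians and the median of all tested genes, 10 changed sign after GC adjustment. That of all tested genes, from -0.35 to 0.046, was among them. Under RLE scaling, DESeq2 and length adjustment 3 each changed sign. The GC-adjusted values still followed transcript length (Spearman correlation 0.211 over 5741 genes). Replicate numbers did not pair the samples, with a correlation of 0.0615, and the fit with the replicate block called 2729 higher and 3042 lower (fraction term 2482 and 2601). The cause of each of these shifts was not tested.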

Other observations

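Antisense genes, RNAs read from the strand opposite another gene, were higher in 20 and lower in 8 of 28 tested cases, with a median log2 fold change of 1.16, beside -0.36 for 5599 protein-coding genes. After GC adjustment their median was 1.08, and in total RNA 0.13. The kit marks strand, but the strand setting of the counting is not given, so reads of an antisense gene and its partner may not be told apart. Long intergenic noncoding RNAs were divided, with 16 higher and 17 lower of 33.

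The 17 tested genes that were not called included Eif5a, Tubb3, E2f6, Ttc3, Pcbp2 and Ptk2, named here after their values were seen. Their log2 fold changes were -0.15 ± 0.063 (SE), -0.14 ± 0.058 (SE), -0.42 ± 0.19 (SE), -0.16 ± 0.072 (SE), -0.30 ± 0.13 (SE) and -0.32 ± 0.14 (SE).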
